A study of Mus musculus with 6 samples.

Results

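Solute carriers are membrane proteins that move small molecules across cell and organelle membranes, and their genes carry the symbol Slc with a family number. The genes described here are those whose mouse symbol starts with Slc and a digit and that had at least 60 counts summed over the 6 libraries, without 14 carriers left out by name. Of 377 genes with such a symbol in the count tables, 14 were left out by name and 163 had fewer counts, which left 200 of the 37991 genes in the tables, in 47 families. Measured values entered this rule through the minimum count. The list, with the names left out, was set with earlier results of these data known. Slc9a9, with 61 counts, lay just inside the minimum, and Slc39a13, with 58, just outside it. By name or kind of transcript, 194 of the 200 encode carriers or their subunits and 6 do not. Those 6 are the scaffold genes Slc9a3r1 and Slc9a3r2, the genes Slc4a1ap and Slc7a6os, the antisense transcript Slc13a2os and the pseudogene Slc2a4rg-ps.

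RNA was sequenced from the cecum of 3 mice of the HBUS strain, numbered 1119, 1192 and 1199, after 60 weeks, with 1 serrated polyp and 1 sample of normal surrounding (distal) cecum from each animal. HBUS mice express transgenes for HB-EGF, a ligand of the epidermal growth factor receptor, and for US28, a chemokine receptor of a herpesvirus, in gut epithelium. Both tissues of each animal carry the transgenes, and no wild-type mouse is part of the comparison. The promoters of the transgenes, the sex of the animals and the number of polyps in a sample are not stated in the labels. The comparison asked which carriers differed between polyp and surrounding cecum within an animal.

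In an absorptive epithelium, carriers of the brush border take nutrients and ions from the lumen, often coupled to sodium or protons, and carriers of the basolateral side pass them to the blood. Others sit inside the cell: most of the SLC25 family exchanges metabolites across the inner mitochondrial membrane, and much of the SLC35 family brings nucleotide sugars into the Golgi and endoplasmic reticulum for glycosylation. The cecum and colon absorb mainly salt, water and products of bacterial fermentation, while most sugar and peptide uptake takes place in the small intestine.

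Total counts ran from 6632645 to 13350119 per library, of which the 2 mitochondrial rRNA genes took 46.3% to 75.3%. Per the labels' protocols, RNA was passed through a kit that removes mammalian RNA before library preparation. All levels and ranks of level given here may therefore describe the mouse RNA that was left. The tissue was taken whole, so fewer cells of a type and less RNA per cell cannot be told apart. Summed over 25 general epithelial genes, levels in mice 1119, 1192 and 1199 were 7531, 6454 and 10128 CPM (counts per 1000000, normalized for library composition) in surrounding tissue and 9527, 9388 and 11848 CPM in polyps, so the polyp was higher in each animal. In that list 3 of 25 genes rose (Krt8, Krt18 and Krt19) and 0 fell (edgeR, adjusted p under 0.05). Log2 fold changes, polyp over surrounding tissue, were above 0 for 20 of the genes and below 0 for 5 (median 0.13). Abundant genes weigh most in the sum: Krt8 went from a mean of 1355 to 2183 CPM and Krt19 from 639 to 1030 CPM. Cdx1, Cdx2, St14 and Hnf4a were lower in the polyp of each mouse (-0.59, -0.29, -0.26 and -0.19), without a call. Sums over 10 smooth muscle genes were 268 to 286 CPM in surrounding tissue and 70.3 to 149 CPM in polyps, and sums over 10 fibroblast genes were 82.9 to 186 and 308 to 681 CPM. For 7 endothelial genes the sums were 9.23 to 17.1 and 14.6 to 43.9 CPM, for 8 leukocyte genes 23.6 to 46.3 and 30.2 to 48.7 CPM, and for 7 enteric neuron and glia genes 4.54 to 7.19 and 17.8 to 21.2 CPM, with Sox10 of the last list at 0 counts in all libraries. Of the tested genes of these lists, 2 of 9 for smooth muscle fell (Tagln and Synpo2), 6 of 10 for fibroblasts rose, the 1 tested neuron and glia gene (Ret) rose, and 0 of 5 endothelial and 0 of 6 leukocyte genes were called. The part of these differences in the carrier results below was not tested.

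Among the solute carriers described here, 1 gene was called different between polyp and surrounding tissue. The intestinal sodium-glucose cotransporter gene Slc5a1 was called lower, by 2.16-fold, and 0 of these carriers were called higher. Of the 200 genes, 193 passed the filter on low counts and were tested together with all other genes (edgeR's quasi-likelihood test, blocked by mouse, with a Benjamini-Hochberg adjusted p under 0.05 over 10960 genes, n = 3 pairs). The share called was 0.518% of the tested carriers, against 2.76% of all genes tested. This share leaves out the 14 carriers excluded by name, so it is not a share over all solute carriers. By direction, 1.72% of all genes were called higher and 1.04% lower. Scaling to the 25 epithelial genes instead, which lowered the median over all genes by 0.37 on the log2 scale, gave 0 carriers higher and 12 lower, beside 84 and 312 of all genes in place of 189 and 114. That scaling used the summed counts of the 25 genes, in which the abundant ones, such as Krt8, weigh most. DESeq2 called 2 carriers higher and 6 lower, and limma-voom 1 higher and 3 lower. At an unadjusted p under 0.05 there were 12 carriers higher and 26 lower, or 6.22% and 13.5% of those tested, beside 8.3% and 6.27% of all genes. All 3 polyps lay above all 3 surrounding samples for 15 carriers (7.77%, against 9.84% of all genes) and below them for 25 (13% against 8.58%). The polyp was higher in each of the 3 mice for 32 carriers (16.6%, against 19.6% of all genes) and lower in each for 43 (22.3% against 18.6%). The median log2 fold change, polyp over surrounding tissue, was -0.06 over the tested carriers and -0.02 over all genes, and the quartiles of the carriers were -0.47 and 0.32. As a sum, the 200 genes gave 6129, 5719.5 and 5744 CPM in the surrounding tissue of mice 1119, 1192 and 1199 and 5448, 5617 and 5798 CPM in their polyps. The sums of the tissues overlapped, and the polyp was lower in mice 1119 and 1192 and slightly higher in mouse 1199.

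**Figure D1:**
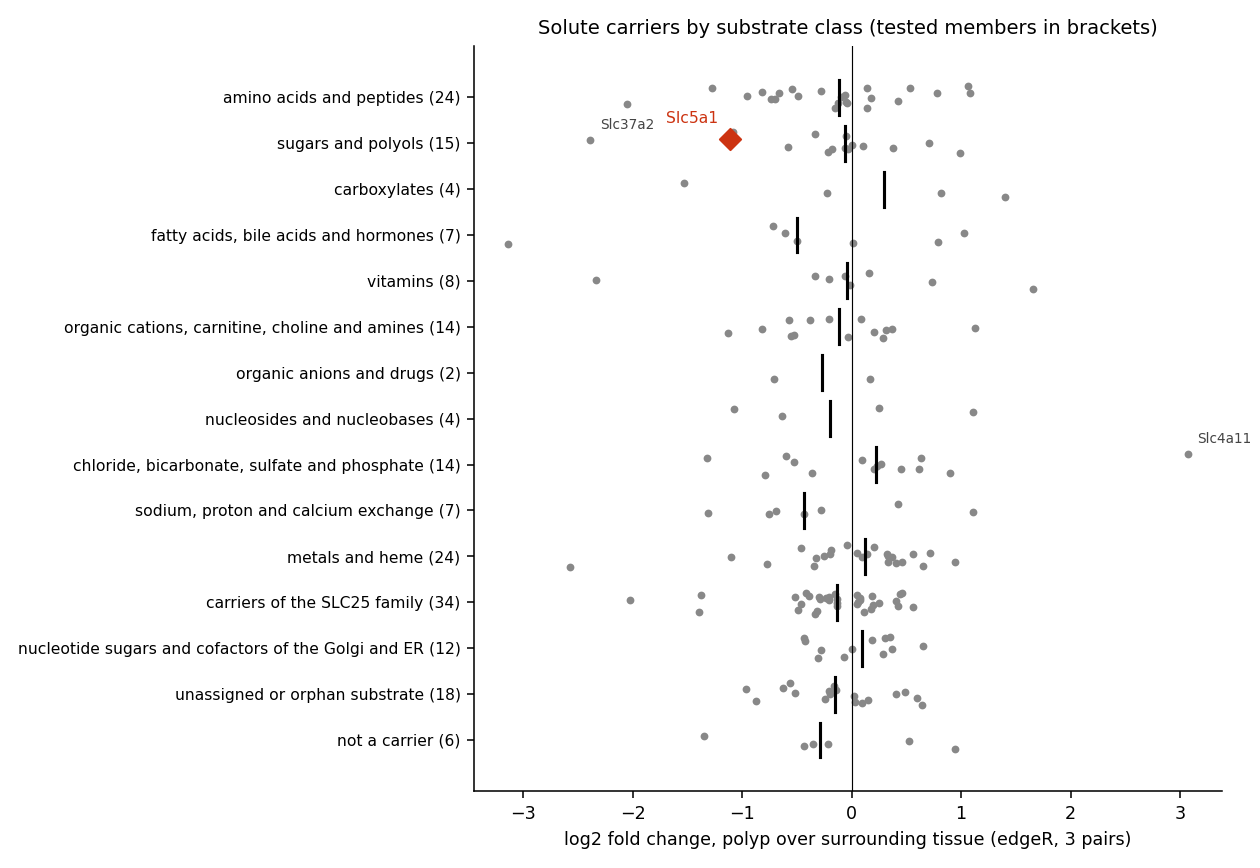
Log2 fold change, polyp over surrounding tissue (edgeR, 3 pairs), of the 193 tested genes by substrate class, 1 point a gene, with a black bar at each class median. Slc5a1 (red diamond, -1.11) is the gene that passed the test, and points lie on both sides of 0 in every class.

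Slc5a1 (ENSMUSG00000011034) encodes SGLT1, which carries glucose and galactose with sodium across the brush border. Its level was 24.6, 21.4 and 16.2 CPM in the surrounding tissue of mice 1119, 1192 and 1199 and 11.2, 10.3 and 7.23 CPM in their polyps. All 3 polyps were below all 3 surrounding samples, and the log2 differences within the animals lay close together, at -1.12, -1.04 and -1.14. The fitted log2 fold change was -1.11 ± 0.24 (± standard error, as for all log2 fold changes here, adjusted p = 0.0491), just inside the threshold. It did not pass without mouse 1119, 1192 or 1199 (adjusted p = 0.254, 0.0554 and 0.236), without the pairing (0.111) or without robust spread estimates (0.0535), while the log2 fold change stayed between -1.18 and -1.11 in these fits. In the same polyps the summed epithelial genes were higher than in the surrounding tissue, while Cdx1, Cdx2, St14 and Hnf4a of that list were lower. The part of epithelial content in the Slc5a1 values was not tested.

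The stretch of 250 bases before the RefSeq start of Slc5a1 and that of Slc37a2, a sugar phosphate carrier with the lowest log2 fold change among carriers lower in all 3 mice, are printed because these genes lead the sugar class. They come from RefSeq (GRCm38.p6), which lists promoters for 150 of the 200 genes, and were searched on both strands for an HNF1 half-site (GTTAAT), a CDX-type site (TTTATG) and an AP-1 site (TGANTCA), whose matches are in capitals. Slc5a1 lies on the plus strand (chr5:33103969-33104218) and Slc37a2 on the minus strand (chr9:37255739-37255988).
Slc5a1: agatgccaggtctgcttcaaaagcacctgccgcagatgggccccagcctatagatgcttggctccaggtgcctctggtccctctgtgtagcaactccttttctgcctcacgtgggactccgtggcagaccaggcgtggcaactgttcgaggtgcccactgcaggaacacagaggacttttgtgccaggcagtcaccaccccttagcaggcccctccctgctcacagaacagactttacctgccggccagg
Slc37a2: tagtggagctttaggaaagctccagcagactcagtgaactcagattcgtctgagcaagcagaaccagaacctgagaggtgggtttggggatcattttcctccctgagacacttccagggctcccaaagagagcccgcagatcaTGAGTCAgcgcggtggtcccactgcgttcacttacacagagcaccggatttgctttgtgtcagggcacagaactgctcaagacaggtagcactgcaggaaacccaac
The Slc5a1 window holds 0 matches and the Slc37a2 window 1, to the AP-1 letters. Over 32851 promoter windows of the same length, 6.43% hold the HNF1 half-site, 10.8% the CDX-type site and 6.75% the AP-1 site. Among the 197 windows of the carriers described here the shares were 4.06%, 6.09% and 7.11%. GC made up 60% of the Slc5a1 window and 53.6% of the Slc37a2 window.

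**Figure D2:**
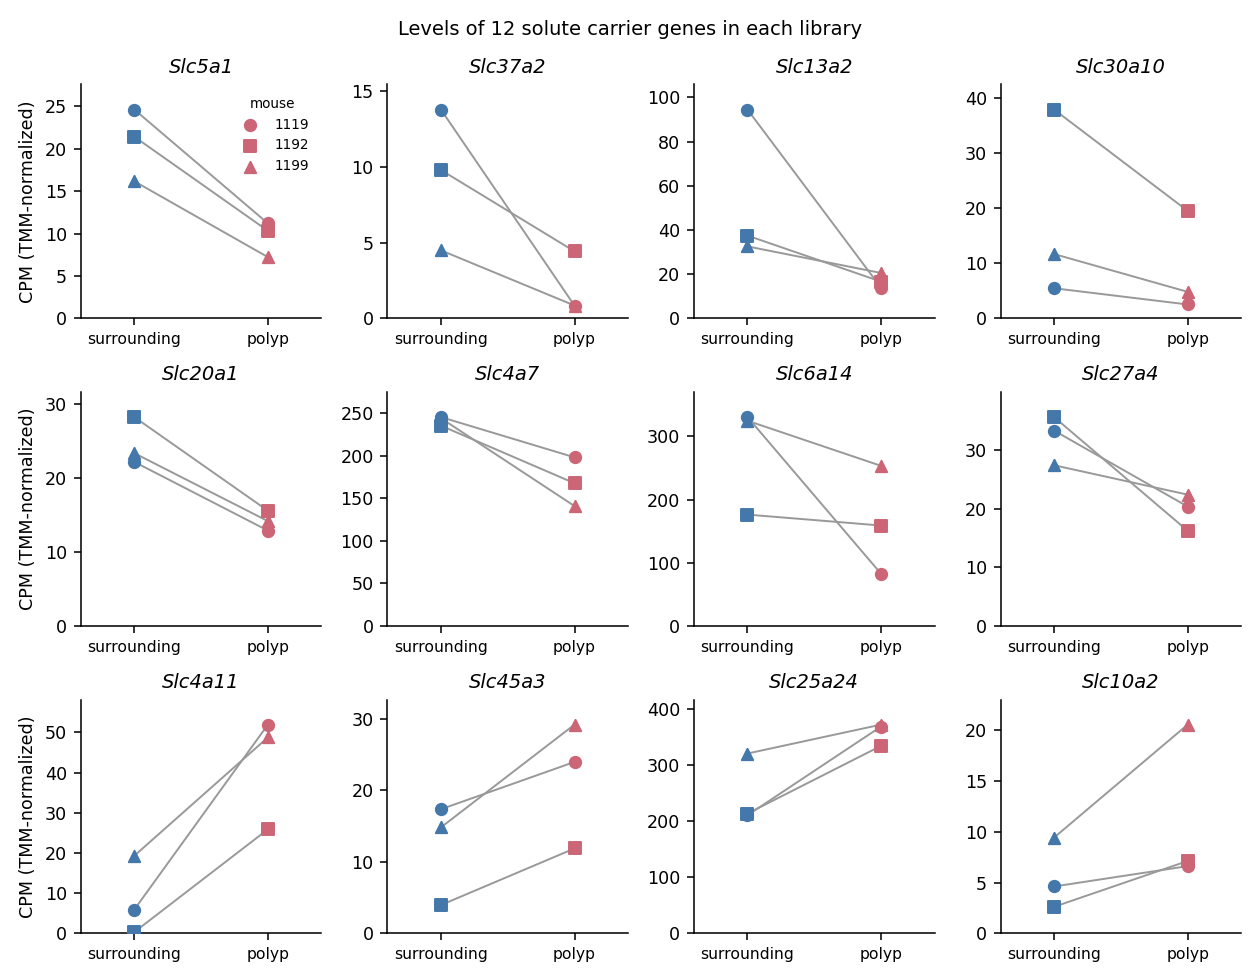
CPM (vertical axis, starting at 0) of 12 genes in surrounding tissue (blue) and polyp (red), with a marker shape for each mouse and a line joining its 2 samples. Slc5a1 is lower by a similar factor in each mouse, whereas the lines of Slc13a2 and Slc6a14 drop most in mouse 1119, and Slc4a11 is higher in each polyp by amounts that differ between mice.

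Below, triplets of CPM are in the order of mice 1119, 1192 and 1199, surrounding tissue before polyps, and a value with its error is a log2 fold change, polyp over surrounding tissue. Rose and fell stand for a call (adjusted p under 0.05), and a gene without a call may still differ between the tissues. Among the 16 sugar and polyol carriers, 15 were tested, 0 rose and 1 (Slc5a1) fell, with 5 log2 fold changes above 0 and 10 below (median -0.06). Slc37a2 was at 13.8, 9.79 and 4.49 CPM in surrounding tissue and 0.844, 4.43 and 0.851 CPM in polyps of the 3 animals in the same order. These groups did not overlap, but the difference ranged widely between animals, and the log2 fold change of -2.38 ± 0.59 missed the threshold (adjusted p = 0.0848). It passed with DESeq2 and, in edgeR, with epithelial scaling, with no filter on low counts, at a mean of at least 5 CPM and without mouse 1192 (adjusted p = 0.0156 in the last). All 4 members of the SLC37 family had log2 fold changes below 0, beside 5650 of all 10960 genes tested. Slc45a3, a gene of a family of sucrose-type carriers, had 17.4, 3.97 and 14.8 CPM and 24.0, 11.9 and 29.2 CPM, higher in the polyp of each mouse but with overlapping groups (log2 fold change 0.99 ± 0.28, adjusted p = 0.122). It was called higher with no filter on low counts. Slc37a1, the member of this class with the second highest level per length, was at -0.06 (adjusted p = 0.898).

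Carriers of amino acids and peptides numbered 25, of which 24 were tested, and 0 rose or fell (1 higher and 2 lower at an unadjusted p under 0.05). The most abundant of them per length was Slc6a14, a sodium- and chloride-driven carrier of neutral and basic amino acids on the luminal side of the colon. It was measured at 331, 176 and 325 CPM in surrounding tissue and at 82.6, 159 and 253 CPM in polyps. The low value was that of the polyp of mouse 1119, and the groups overlapped through the surrounding sample of mouse 1192 (log2 fold change -0.82 ± 0.38, adjusted p = 0.420). Slc38a6, of the sodium-coupled neutral amino acid family, had 206, 153 and 166 CPM and 254, 162 and 182 CPM, slightly higher in each polyp (0.17 ± 0.13, adjusted p = 0.623).

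Slc15a4, which moves histidine and peptides out of endolysosomes, had the lowest log2 fold change of the amino acid and peptide class, with 7.93, 10.01 and 5.62 CPM and 3.49, 0.656 and 2.27 CPM. All 3 polyps were below the surrounding samples, and the log2 fold change of -2.05 ± 0.62 did not pass (adjusted p = 0.148), although it was called with DESeq2 and with no filter on low counts. The glutamine carrier gene Slc1a5 stood at 18.4, 18.0 and 9.66 CPM and 10.8, 6.23 and 6.66 CPM, again lower in each polyp (-0.96 ± 0.31, adjusted p = 0.175). The brush border peptide carrier gene Slc15a1 had 1.04, 4.40 and 8.99 CPM and 1.21, 1.39 and 1.98 CPM, with no common direction over the mice (-1.28 ± 0.69, adjusted p = 0.473). Slc7a15 stayed below 4 CPM in all libraries and was at 1.06 (adjusted p = 0.619).

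Slc3a1 and Slc7a9 encode the heavy and light chain of the luminal carrier of cystine and basic amino acids. Slc3a1 had 50.5, 30.5 and 36.8 CPM in surrounding tissue and 27.5, 47.5 and 33.3 CPM in polyps, with no common direction over the mice (-0.12 ± 0.27, adjusted p = 0.883). Slc7a9 had 0, 1 and 0 counts in surrounding tissue and 8, 48 and 17 counts in polyps of mice 1119, 1192 and 1199. It was too low for the filter and has no test in the reported fit. Without a filter on low counts it was called higher.

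For carboxylate carriers, 4 of 5 genes were tested and 0 rose or fell (0 higher and 1 lower at an unadjusted p under 0.05). Slc13a2, which carries succinate and citrate with sodium across the brush border, accounted for most of the summed level of the class. Its values were 94.5, 37.5 and 32.6 CPM in surrounding tissue and 13.9, 16.6 and 20.6 CPM in polyps. The groups did not overlap, and the high value was that of the surrounding tissue of mouse 1119 (log2 fold change -1.53 ± 0.38, adjusted p = 0.107). It was called lower with DESeq2, limma-voom, epithelial scaling and no filter on low counts. Its antisense transcript Slc13a2os, named after its values were seen because it overlaps the gene, had 21.5, 6.32 and 4.04 CPM and 2.29, 3.03 and 4.96 CPM, and since nothing states a strand setting, reads of the pair cannot be told apart. Slc16a13, of the monocarboxylate family, was below 10 CPM in all libraries (0.81 ± 0.44, adjusted p = 0.473).

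All 7 carriers of fatty acids, bile acids and hormones were tested, and 0 rose or fell (1 higher and 1 lower at an unadjusted p under 0.05). Slc10a2 encodes the luminal sodium-driven bile acid carrier, best known from the ileum. Its values were 4.63, 2.63 and 9.44 CPM and 6.63, 7.13 and 20.6 CPM, higher in the polyp of each mouse, with mouse 1199 above the others in both tissues (1.03 ± 0.34, adjusted p = 0.188). The basolateral bile acid exporter is a dimer of the products of Slc51a and Slc51b. Slc51a stood at 16.1, 18.8 and 12.1 CPM and 14.3, 23.0 and 11.2 CPM (0.01 ± 0.24, adjusted p = 0.992), a difference near 0 whose sign changed with the scaling. Slc51b was lower in the polyps of 2 mice and higher in that of mouse 1199 (-0.61 ± 0.45, adjusted p = 0.616).

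The fatty acid transport protein gene Slc27a4 had 33.3, 35.6 and 27.4 CPM in surrounding tissue and 20.4, 16.2 and 22.4 CPM in polyps. These groups did not overlap, and the log2 fold change was -0.72 ± 0.22 (adjusted p = 0.154), which passed with no filter on low counts. Slc27a2, a related acyl-CoA synthetase of peroxisomes and the endoplasmic reticulum, was singled out after its values were seen because it had the lowest fitted log2 fold change of all tested carriers (-3.14 ± 1.64, adjusted p = 0.475). Its values of 6.80, 3.48 and 8.31 CPM and 0.121, 5.41 and 0 CPM show a lower polyp in mice 1119 and 1199 and a higher one in mouse 1192, and it was called lower without mouse 1192 and with no filter on low counts.

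Vitamin carriers were 8, all tested, with 0 called (1 higher and 0 lower at an unadjusted p under 0.05) and a median log2 fold change of -0.04. Slc44a4, which takes up thiamine pyrophosphate made by gut bacteria, was among the highest carriers per length. Its levels of 255, 197 and 200.0 CPM in surrounding tissue and 187, 210.5 and 227 CPM in polyps overlapped (-0.06 ± 0.16, adjusted p = 0.905). The ascorbate carrier gene Slc23a2 was at -0.02 ± 0.17 (adjusted p = 0.975). The riboflavin carrier gene Slc52a3 had 16.6, 8.23 and 8.99 CPM and 18.3, 18.5 and 16.9 CPM, and all 3 polyps were above the surrounding samples (0.73 ± 0.29, adjusted p = 0.281). The folate carrier gene Slc46a1 was below 6 CPM in all libraries (1.66 ± 0.94, adjusted p = 0.490).

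Of 15 carriers of organic cations, carnitine, choline and amines, 14 were tested and 0 rose or fell (1 higher and 2 lower at an unadjusted p under 0.05). The carnitine carrier gene Slc22a5 had 34.9, 43.6 and 33.9 CPM in surrounding tissue and 22.5, 31.9 and 23.8 CPM in polyps. All 3 polyps were below the surrounding samples (log2 fold change -0.53 ± 0.17, adjusted p = 0.184), and epithelial scaling gave a call. Of the 7 tested SLC22 genes, 6 had log2 fold changes below 0, beside 5650 of all 10960 genes tested. Reads shared between Slc22a5 and its related neighbours Slc22a4 and Slc22a21 could not be followed.

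The choline carrier gene Slc44a1 was even across tissues, at 326, 334 and 313 CPM and 325, 331 and 379 CPM (0.08 ± 0.14, adjusted p = 0.832). The taurine carrier gene Slc6a6 had 54.8, 51.7 and 55.7 CPM and 58.2, 69.9 and 84.2 CPM, with no overlap between the groups (0.37 ± 0.16, adjusted p = 0.338). The creatine carrier gene Slc6a8 was at 0.28 ± 0.17 and Slc16a9, reported to export carnitine, at -0.82 ± 0.38 (adjusted p = 0.522 and 0.376).

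Organic anion carriers were 3, of which 2 were tested and 0 called (0 higher and 1 lower at an unadjusted p under 0.05). Slc17a5 exports sialic acid from lysosomes. Its 24.8, 17.8 and 20.00 CPM in surrounding tissue and 11.4, 15.5 and 11.2 CPM in polyps did not overlap (-0.71 ± 0.26, adjusted p = 0.248). Slc17a4, an organic anion carrier of the intestine, had 38.1, 111 and 87.6 CPM and 72.6, 75.4 and 98.7 CPM, higher in the polyps of 2 mice and lower in that of mouse 1192 (0.17 ± 0.26, adjusted p = 0.817).

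Nucleoside and nucleobase carriers were 5, with 4 tested and 0 called, also 0 at an unadjusted p under 0.05. Slc17a9, the vesicular nucleotide carrier, was the most abundant of them per length (0.25 ± 0.20, adjusted p = 0.639). Slc29a3, a lysosomal nucleoside carrier, had 4.63, 7.67 and 5.17 CPM and 3.13, 2.13 and 2.98 CPM, lower in each polyp (-1.07 ± 0.49, adjusted p = 0.366). The purine nucleobase carrier gene Slc43a3 was below 3 CPM throughout (1.11 ± 0.90, adjusted p = 0.651), and Slc23a4, of the nucleobase and ascorbate family, was at -0.63 (adjusted p = 0.657).

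All 14 carriers of chloride, bicarbonate, sulfate and phosphate were tested, and 0 rose or fell (1 higher and 4 lower at an unadjusted p under 0.05). Slc4a11, a borate-like member of the bicarbonate family that conducts protons and water, had the highest log2 fold change of all tested carriers, 3.07 ± 0.88. It had 5.95, 0.355 and 19.3 CPM in surrounding tissue and 51.9, 25.9 and 48.8 CPM in polyps. All 3 polyps were above all 3 surrounding samples, but the size of the difference varied widely between mice, and it did not pass (adjusted p = 0.229). DESeq2 and limma-voom called it higher (adjusted p = 0.04999 and 0.0286).

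The most abundant of these anion carriers per length was Slc4a7, a sodium bicarbonate cotransporter, with 246, 236 and 244 CPM in surrounding tissue and 198, 168 and 141 CPM in polyps. Slc20a1, a sodium phosphate cotransporter, had 22.2, 28.2 and 23.4 CPM and 12.9, 15.6 and 14.2 CPM. For both genes all polyps were below all surrounding samples, with log2 fold changes of -0.53 ± 0.15 and -0.79 ± 0.21 (adjusted p = 0.115 and 0.107). Both were called lower with epithelial scaling, and Slc4a7 also with DESeq2, with no filter on low counts and at a mean of at least 5 CPM. The sulfate carrier gene Slc26a1 had 6.61, 8.73 and 5.39 CPM and 2.29, 4.26 and 1.98 CPM (-1.32 ± 0.42, adjusted p = 0.171). The luminal phosphate carrier gene Slc34a2 had 6.89, 9.30 and 8.99 CPM and 3.86, 23.8 and 19.6 CPM, lower in the polyp of mouse 1119 and higher in the other polyps (0.62 ± 0.44, adjusted p = 0.593).

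Sodium, proton and calcium exchangers were 8, of which 7 were tested and 0 called (0 higher and 2 lower at an unadjusted p under 0.05). Slc8a1, a sodium calcium exchanger known from muscle, had 56.5, 78.4 and 50.6 CPM in surrounding tissue and 35.7, 60.8 and 42.0 CPM in polyps (-0.43 ± 0.16, adjusted p = 0.242). The summed smooth muscle genes were lower in every polyp as well, and their part in the Slc8a1 values was not tested. Slc9a5 was below 3 CPM in all libraries (1.11 ± 1.03, adjusted p = 0.697).

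Metal and heme carriers were 24, all tested, and 0 rose or fell (2 higher and 3 lower at an unadjusted p under 0.05). In this class 14 log2 fold changes were above 0 and 10 below. Of the zinc importer family SLC39, 8 of 10 were above 0 (median 0.32), and of the zinc exporter family SLC30, 2 of 7 were (median -0.19), beside 5310 of all 10960 genes tested. In SLC39 only Slc39a1, Slc39a6 and Slc39a10 were higher in the polyp of each mouse. Slc39a3 and Slc39a11 were higher in that of mouse 1192 only. No difference between the families was tested. With levels scaled to the epithelial genes, small positive values such as those of Slc39a4 and Slc39a5 turned negative.

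Slc30a10, an exporter of manganese at the luminal surface, had 5.48, 37.9 and 11.7 CPM in surrounding tissue and 2.53, 19.5 and 4.82 CPM in polyps. The 3 mice differed several-fold in level, so the groups overlapped, but the log2 differences within the animals were alike, at -1.05, -0.95 and -1.24. The fitted log2 fold change of -1.10 ± 0.26 came next after Slc5a1 in rank of p and missed the threshold (adjusted p = 0.0752). It passed with epithelial scaling, with no filter on low counts and at a mean of at least 5 CPM. The zinc importer gene Slc39a1 had 54.3, 47.6 and 74.8 CPM and 92.0, 82.1 and 81.2 CPM, with all polyps above the surrounding samples (0.56 ± 0.18, adjusted p = 0.169), and was called higher with no filter.

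Slc39a4, the luminal zinc importer of the gut, had 160.3, 47.8 and 121 CPM in surrounding tissue and 136, 111 and 123 CPM in polyps. The surrounding tissue of mouse 1192 was low, and the sign of the small difference depended on that animal (0.33 ± 0.26, adjusted p = 0.650, and -0.15 without mouse 1192). Slc39a5, on the basolateral side, was at 0.21 ± 0.33 (adjusted p = 0.827). For iron, the importer gene Slc11a2 had 13.2, 12.2 and 9.66 CPM and 9.40, 8.28 and 7.66 CPM, lower in each polyp (-0.47 ± 0.28, adjusted p = 0.527). The exporter gene Slc40a1 (ferroportin) had 24.5, 33.4 and 19.8 CPM and 47.0, 28.5 and 31.6 CPM, higher in the polyps of mice 1119 and 1199 (0.46 ± 0.25, adjusted p = 0.473). The heme carrier gene Slc48a1 was at 0.95 ± 0.47 with levels below 6 CPM (adjusted p = 0.419).

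The SLC25 family was the largest class, with 34 genes, all tested, of which 0 rose or fell (3 higher and 4 lower at an unadjusted p under 0.05). It gave 19.9% to 22.4% of the summed CPM of the 200 genes in each library. Slc25a5, an exchanger of ADP and ATP, was the highest of all carriers per length, with 281, 273 and 251 CPM in surrounding tissue and 193, 213 and 243 CPM in polyps (-0.32 ± 0.15, adjusted p = 0.374). This gene has near-identical pseudogene copies, and how reads were shared among them is not known from the counts.

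Slc25a24, a calcium-regulated carrier of ATP-magnesium and phosphate, was the second highest carrier per length. It had 211, 214 and 321 CPM and 369, 335 and 372 CPM, with all 3 polyps above the surrounding samples and the smallest difference in mouse 1199 (0.56 ± 0.15, adjusted p = 0.117). It was called higher with DESeq2 and with no filter on low counts. The carnitine-acylcarnitine carrier gene Slc25a20 had 108, 85.2 and 122 CPM and 68.7, 65.8 and 104 CPM, lower in each polyp (-0.42 ± 0.15, adjusted p = 0.221), and was called with epithelial scaling. Slc25a42, the mitochondrial coenzyme A carrier, had 5.57, 8.73 and 4.94 CPM and 1.69, 4.35 and 1.70 CPM, without overlap (-1.39 ± 0.45, adjusted p = 0.173).

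Carriers of nucleotide sugars and cofactors into the Golgi and endoplasmic reticulum were 12, all tested, with 0 called (1 higher and 1 lower at an unadjusted p under 0.05) and log2 fold changes from -0.44 to 0.65. The class therefore spanned the narrowest range of any with more than 3 tested members. Slc35c1, which brings GDP-fucose into the Golgi, had 60.6, 64.0 and 65.2 CPM in surrounding tissue and 81.0, 86.7 and 77.1 CPM in polyps, and Slc35a3, which brings UDP-N-acetylglucosamine, 206, 192 and 240.4 CPM and 287, 240.5 and 258 CPM. For both, all polyps were above all surrounding samples (0.37 ± 0.14 and 0.30 ± 0.14, adjusted p = 0.281 and 0.371), but scaling to epithelial genes brought them to -0.0032 and -0.066. Slc35d1, a carrier of UDP-glucuronic acid and UDP-N-acetylgalactosamine in the endoplasmic reticulum, had 115, 130.3 and 109.9 CPM and 80.5, 87.9 and 94.0 CPM, lower in each polyp (-0.44 ± 0.14, adjusted p = 0.190), and was called with epithelial scaling. Slc35d2 was below 9 CPM in all libraries (0.65 ± 0.47, adjusted p = 0.598).

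**Figure D3:**
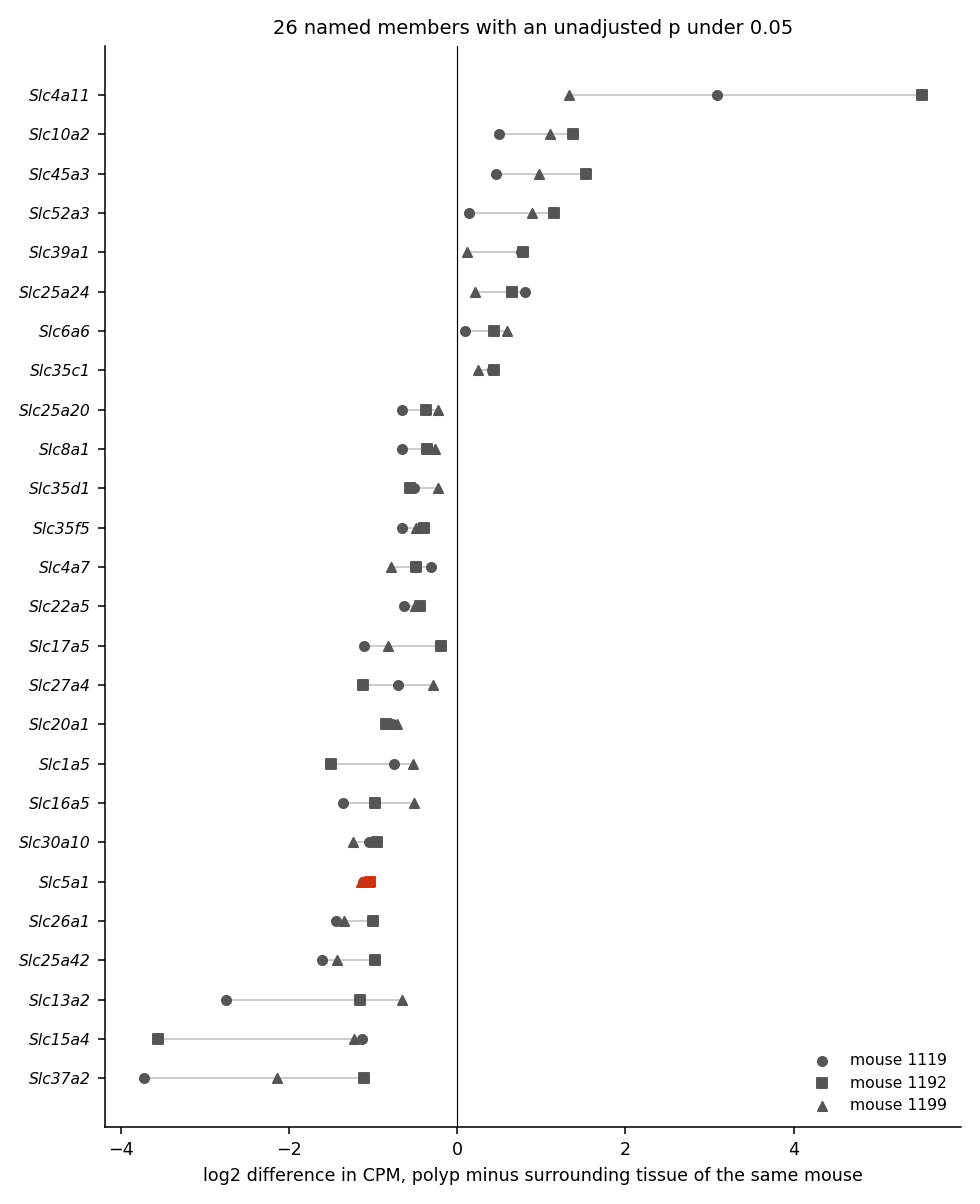
Log2 difference in CPM between polyp and surrounding tissue of the same mouse for 26 genes described in the text with an unadjusted p under 0.05, 1 marker shape a mouse, ordered by the fitted log2 fold change. The red markers of Slc5a1 lie close together near -1.1, while those of Slc4a11, Slc15a4 and Slc37a2 are spread widely. Of all 38 tested carriers with such a p, 36 have the same sign in all 3 mice. Choosing genes by a p from paired samples favours this, so the count is no separate evidence.

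Among the 18 genes with no assigned substrate, 0 of 18 tested rose or fell (0 higher and 3 lower at an unadjusted p under 0.05). Slc16a5 is named as a monocarboxylate carrier without a settled substrate. It had 28.7, 31.5 and 23.6 CPM in surrounding tissue and 11.1, 15.9 and 16.4 CPM in polyps, with no overlap between the groups (-0.96 ± 0.24, adjusted p = 0.0797). Slc35f5 had 137, 143 and 156 CPM and 86.4, 109 and 111 CPM, again without overlap (-0.51 ± 0.14, adjusted p = 0.106). Both were called lower with epithelial scaling and at a mean of at least 5 CPM, and Slc16a5 also with no filter on low counts, DESeq2 and limma-voom. Slc22a18 and Slc10a7 were at -0.25 and 0.60 (adjusted p = 0.717 and 0.490).

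Of the 6 genes that are not carriers, all were tested and 0 were called, also 0 at an unadjusted p under 0.05. Slc9a3r1 (NHERF1), a PDZ scaffold that holds exchangers and channels in the brush border, had 106, 119.8 and 173 CPM in surrounding tissue and 99.2, 104 and 137 CPM in polyps (-0.22 ± 0.14, adjusted p = 0.539). Its relative Slc9a3r2 (NHERF2) was below 5 CPM in all libraries (0.94 ± 0.78, adjusted p = 0.655), and Slc4a1ap was at -0.36 (adjusted p = 0.791).

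Levels per length, as mean CPM per kilobase of exon, spanned from 0.09 to 147 over the 200 genes, with a median of 1.67. Slc25a5 led with 163 in surrounding tissue and 131 in polyps, followed by Slc25a24 (72.4 and 105), Slc44a4 (69.8 and 66.8) and Slc6a14 (80.8 and 48.1). Next in CPM per kilobase came the scaffold gene Slc9a3r1 (69.2 and 58.7) and Slc44a1 (46.7 and 49.7). Slc5a1 stood at 5.06 and 2.34, rank 65. The 10 highest genes had log2 fold changes between -0.82 and 0.56, and the smallest adjusted p among them was 0.106.

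**Figure D4:**
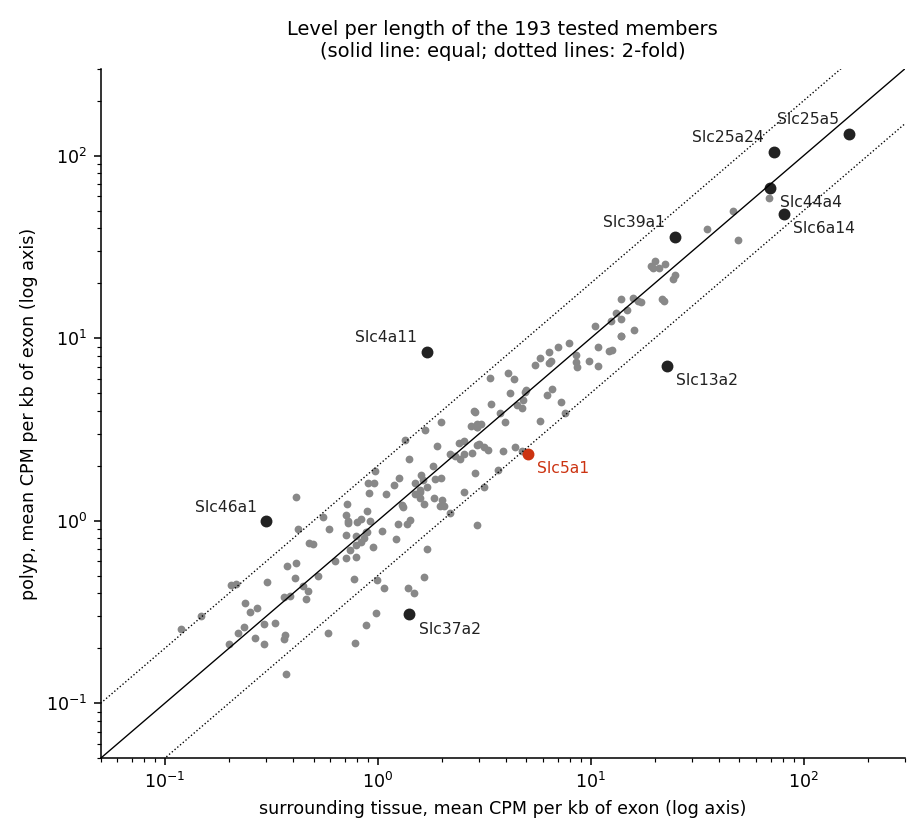
Mean CPM per kilobase of exon in surrounding tissue (horizontal) and polyps (vertical) for the 193 tested genes, both axes logarithmic. The most abundant genes lie within 2-fold of the line of equal levels, and Slc4a11 (above), Slc37a2 and Slc13a2 (below) lie outside it.

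Summed over each of 15 classes, CPM in polyps and surrounding tissue overlapped except in 4. All polyps were below the surrounding samples for 2 classes, carboxylates and the carriers of fatty acids, bile acids and hormones, and above them for 2, metals and nucleotide sugars. Carboxylate carriers were at 99.2, 49.5 and 35.5 CPM in the surrounding tissue of mice 1119, 1192 and 1199 and 26.6, 30.3 and 29.2 CPM in their polyps, which followed Slc13a2. Carriers of fatty acids, bile acids and hormones summed to 73.3, 69.2 and 69.0 CPM and 49.1, 58.1 and 68.5 CPM, and nucleotide sugar carriers to 529, 517 and 538 CPM and 589, 543 and 548 CPM, with gaps between the groups that were small beside the spread within them. Sums for the SLC25 family were 1218, 1203 and 1231 CPM and 1161, 1179 and 1302 CPM, and those for metal and heme carriers 712, 638 and 699 CPM and 742, 782 and 716 CPM. Anion carriers summed to 469, 477 and 421 CPM and 426, 421 and 353 CPM, lower in the polyp of each mouse. These sums are descriptions without a test.

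**Figure D5:**
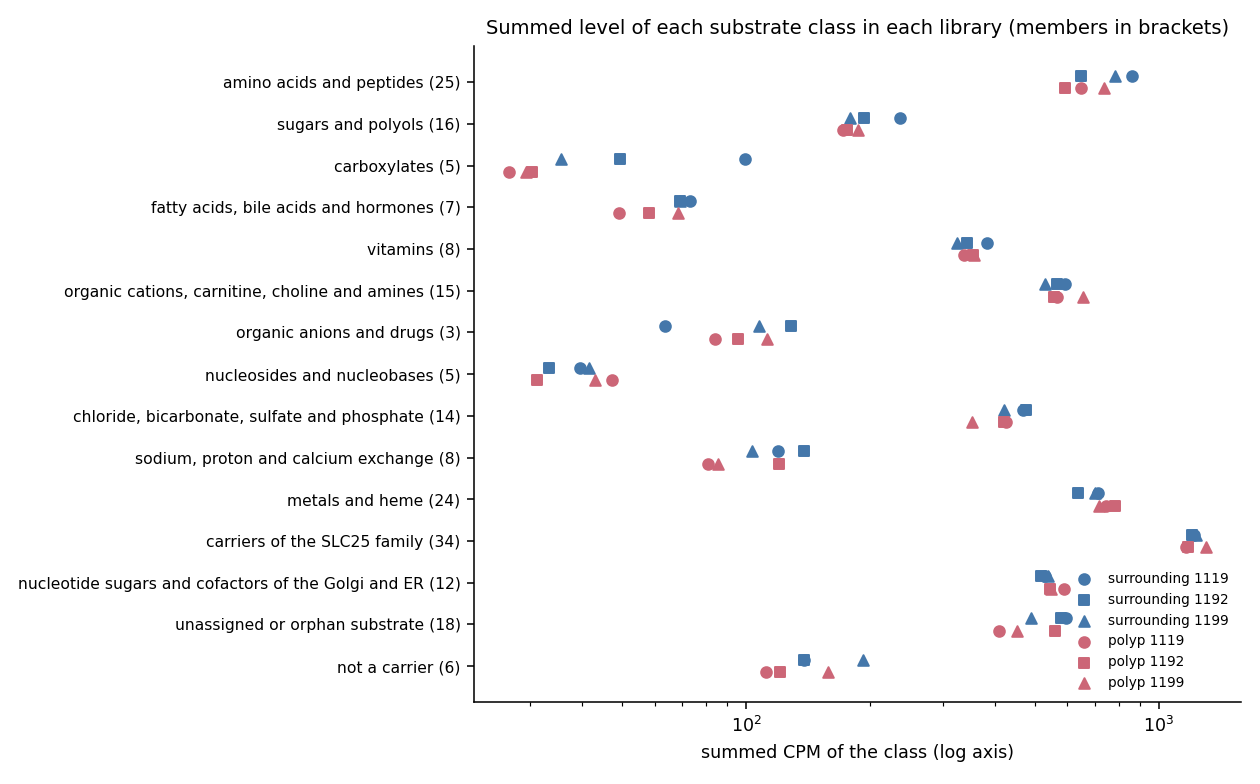
Summed CPM of each substrate class (logarithmic axis) in the 3 surrounding samples (blue) and the 3 polyps (red), with a marker shape for each mouse. The SLC25 family gives the highest sums, 1161 to 1302 CPM, and the carboxylate carriers are lower in every polyp, most of all in mouse 1119.

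The 7 genes that did not pass the filter on low counts were Slc7a9, Slc16a7, Slc17a1, Slc28a2, Slc2a10, Slc47a1 and Slc9a9, with 61 to 145 counts in all. Those described here, other than Slc7a9, were chosen after their counts were seen. Several of them had most of their counts in 1 library. The drug and cation exporter gene Slc47a1 had 114 counts in the surrounding tissue of mouse 1192 and 0 in its polyp, and 18 or fewer in each other library. Slc17a1, an anion carrier gene of the kidney and liver, had 54 counts in the polyp of mouse 1192 and 0 in its surrounding tissue, and Slc2a10, a glucose carrier family gene, 68 and 17. The nucleoside carrier gene Slc28a2 had 35 counts in the polyp of mouse 1199 and 13 or fewer elsewhere. A count of 0 allows up to 3 counts from counting error alone. That is 0.225 to 0.452 CPM, depending on the library, if total counts are not normalized for composition. On the normalized scale used for the CPM here, 3 counts in the surrounding tissue of mouse 1199 are 0.674 CPM.

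Transport genes outside the family were set beside these results. Of the organic anion transporters named Slco, 4 of 15 were tested, 0 rose and 1 fell: the prostaglandin carrier gene Slco2a1 went from 62.7 ± 0.694 to 20.9 ± 7.21 CPM (mean ± SD, n = 3 mice, adjusted p = 0.0117; median log2 fold change of the list -0.90). Of 46 ABC transporters, 26 were tested, 1 rose and 0 fell (median -0.26). This was Abcc4, an exporter of cyclic nucleotides and prostaglandins, which went from 6.17 ± 0.766 to 23.3 ± 5.26 CPM (adjusted p = 0.0154). Of 8 tested ion pump subunits, 0 rose and 1 fell (median 0.10), the plasma membrane calcium pump gene Atp2b4 (log2 fold change -1.24 ± 0.27, adjusted p = 0.0495). Of 5 tested partner genes of carriers, 0 were called (median -0.20).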

How the data were processed

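The authors deposited raw, unnormalized counts for 37991 Ensembl genes in each of 6 samples, per the file headers. The submitters' processing notes list HTSeq 0.5.3p9, Bowtie 0.12.9 and TopHat2 2.0.7. Neither the settings, strand handling and build nor the annotation are given in the sources used here. Per the labels' protocols, RNA was passed through a kit that removes mammalian RNA and a bacterial rRNA kit before library preparation, so the counts may describe what mouse RNA was left. Symbols, biotypes and exon lengths came from GENCODE M21, which named 32919 genes.

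Genes were tested on all 6 libraries with edgeR 4.0.16 (R 4.3.3, limma 3.58.1): TMM normalization, filterByExpr (minimum count 10), a quasi-likelihood fit with robust spread, the mouse as a block, and Benjamini-Hochberg adjustment over 10960 genes, called under 0.05, two-sided. Pairing follows the series design and the mouse number in each title; deviations of the paired samples from their tissue means correlated at 0.0719, 0.127 and 0.159. Residual degrees of freedom were 2, with a median of 6.63 prior degrees of freedom added. Errors of log2 fold changes are standard errors derived from the test statistic. CPM use TMM-normalized library sizes, and per-mouse log2 differences a prior count of 2. The procedure was also run on simulated counts, drawn without differences between mice in any gene. That run therefore cannot show how the block by mouse performs on these data. Alternatives were the unpaired fit, RLE and upper-quartile normalization, genes above 1% of a library left out, scaling to 25 general epithelial genes, other filters (none, or a mean of 5 CPM), no robustness, DESeq2 1.42.0, limma-voom and each mouse left out.

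The genes and lists were chosen with earlier results of these data known. Substrate classes were assigned by family and textbook substrate; Slc7a6os was moved to the genes that are not carriers after its name was seen in the tables. Genes named are those called; in each class the 2 with the smallest p, the 2 highest per length, and the largest rise and drop with 1 sign in all 3 mice and a mean of at least 10 counts; and 27 chosen by role. Some genes the rule names are not reported here. Genes described outside this rule were chosen after their values were seen. Figures and summaries used Python 3.11.15.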

Additional observations from a re-analysis of the deposited data

How the results depend on the processing

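The call of Slc5a1 rested on all 3 pairs. The number of carriers called lower was 1 in the reported fit, 0 with no replicate block (unpaired), 0 without robust spread estimates, and 0 to 2 with a mouse left out. It was 12 scaled to general epithelial genes, 9 with no filter on low counts, 6 with a mean of at least 5 CPM, 6 with DESeq2 and 3 with limma-voom. Carriers called higher were 4 with no filter, 2 with DESeq2, 1 with limma-voom and 0 in the other fits. The 4 include Slc7a9, which met the minimum count only through the polyps. The fit with no filter tested 21370 genes and that at 5 CPM tested 7339; the cause of the other changes was not tested. Over all genes, calls numbered 87 unpaired and 83, 281 and 100 without mouse 1119, 1192 or 1199, 447 at 5 CPM, 536 with DESeq2 and 753 with no filter, against 303. The median log2 fold change of the carriers went from -0.065 to -0.43 with epithelial scaling, where the median of all genes was -0.39, and ran from -0.13 to 0.029 with a mouse left out.

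Of 64 named genes with a test, 48 kept their sign in every one of the 13 alternatives that gave them a value. The others had small differences that reversed. Slc51a was at -0.027 with upper-quartile normalization, -0.0020 without genes above 1% of a library and -0.015 at 5 CPM. With epithelial scaling, reversed values were Slc6a8 -0.088, Slc17a4 -0.19, Slc17a9 -0.13, Slc35a3 -0.066, Slc44a1 -0.28, Slc51a -0.37, Slc39a5 -0.17, Slc38a6 -0.20, Slc35c1 -0.0032 and Slc39a4 -0.037. With a mouse left out, values that crossed 0 ran as follows: Slc17a4 -0.20 to 0.51, Slc22a18 -0.57 to 0.12, Slc23a2 -0.23 to 0.10, Slc37a1 -0.15 to 0.029, Slc39a4 -0.15 to 0.62, Slc39a5 -0.22 to 0.58, Slc3a1 -0.56 to 0.26, Slc44a1 -0.025 to 0.13, Slc44a4 -0.19 to 0.13, Slc4a1ap -0.76 to 0.11 and Slc51a -0.18 to 0.096. The filter on low counts left 7 of the 200 genes without a test in the reported fit.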
